A study of Mus musculus with 32 samples.

Results

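The 9 genes of the oligodendrocyte, taken by their row names from the 2 deposited count tables, are described here: Mbp, Mobp, Mog, Mag, Cnp, Cldn11 and Opalin, which make proteins of the myelin sheath and of the cell that builds it, and Olig2 and Sox10, transcription factors of the lineage. All 9 were found among the 33280 genes of each table, and all 9 passed the filter on low counts in both, which left 18968 genes in tissue and 18297 in sorted macrophages. The study compared 4 control mice (CTL), given the vehicle, with 4 mice given BLZ945, an inhibitor of the receptor CSF1R, at 200 mg per kg for 7 days. BLZ945 depletes microglia and CNS-associated macrophages, and 8 weeks were left for these cells to repopulate before a thromboembolic stroke of the middle cerebral artery was induced in every mouse of both groups. All were C57BL/6JCrl wild-type mice of both sexes, with no transgene, and no unoperated mouse was among these libraries, so the hemisphere without the lesion (contralateral) is the reference for the lesioned side (ipsilateral). At 1 day after stroke each hemisphere gave a library of whole tissue and a library of subdural CNS-associated macrophages (sdCAMs), the macrophages of the leptomeninges and perivascular spaces, sorted as CD206-positive myeloid cells after removal of the choroid plexus and of myelin debris.

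Oligodendrocytes wrap axons in compacted membrane. MBP holds the cytoplasmic faces of that membrane together and MOBP is a further small basic protein of compact myelin, whereas MAG faces the axon on the innermost layer, MOG lies on the outermost surface, CNP keeps cytoplasmic channels open, and CLDN11 seals the layers with tight junctions. Opalin is a membrane protein of mature oligodendrocytes. OLIG2 marks the lineage from the precursor onwards, and SOX10 is required for terminal differentiation and drives many myelin genes together with MYRF. Macrophages do not build myelin, although the Mbp locus also gives golli transcripts in immune cells and Cnp is transcribed outside the lineage too.

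The promoters that could be matched were searched for the letters that SOX factors and MYRF recognise. The 9 genes moved together from library to library, and why they did so was not tested. RefSeq windows on GRCm38.p6, from 250 bases before to 50 bases after the start, were matched by symbol for 7 of the 9 genes. These genes have 9 windows, since Mag has 3, of which 2 overlap and hold the same matches. A simplified SOX motif, ACAANG on either strand, stood in 8 of the 9 windows and in 41.2% of all 32851 windows. The MYRF motif, CTGGCAC or CTGGTAC on either strand, stood in 5 of 9 windows (of Cnp, Mag, Mog and Opalin) and in 7.1% of all, and both motifs together stood in the same number of member windows and in 3.01% of all. By gene the SOX motif stood in 6 of 7 and the MYRF motif in 4 of 7. The 4 windows printed are those of Mobp, which held the most SOX letters, and of 3 genes with both motifs, and capitals mark the matches.
Mobp, chr9:120149492-120149791, plus strand: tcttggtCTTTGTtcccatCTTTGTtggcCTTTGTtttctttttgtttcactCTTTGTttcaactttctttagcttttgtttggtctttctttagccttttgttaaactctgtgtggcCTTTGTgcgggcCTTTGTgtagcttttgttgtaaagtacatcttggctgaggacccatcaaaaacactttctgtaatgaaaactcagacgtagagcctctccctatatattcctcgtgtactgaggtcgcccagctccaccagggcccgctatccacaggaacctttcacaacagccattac
Mog, chr17:37023349-37023648, minus strand: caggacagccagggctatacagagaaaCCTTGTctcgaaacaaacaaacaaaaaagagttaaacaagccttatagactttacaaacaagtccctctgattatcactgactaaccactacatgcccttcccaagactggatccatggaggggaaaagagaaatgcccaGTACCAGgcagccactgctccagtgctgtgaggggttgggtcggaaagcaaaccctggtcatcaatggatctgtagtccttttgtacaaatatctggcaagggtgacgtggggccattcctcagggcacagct
Cnp, chr11:100574689-100574988, plus strand: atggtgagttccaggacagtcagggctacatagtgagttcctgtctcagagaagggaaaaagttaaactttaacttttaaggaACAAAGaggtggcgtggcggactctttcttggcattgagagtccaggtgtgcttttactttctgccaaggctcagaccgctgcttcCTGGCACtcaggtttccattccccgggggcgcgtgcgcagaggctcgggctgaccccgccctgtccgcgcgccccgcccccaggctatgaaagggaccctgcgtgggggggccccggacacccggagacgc
Opalin, chr19:41077064-41077363, minus strand: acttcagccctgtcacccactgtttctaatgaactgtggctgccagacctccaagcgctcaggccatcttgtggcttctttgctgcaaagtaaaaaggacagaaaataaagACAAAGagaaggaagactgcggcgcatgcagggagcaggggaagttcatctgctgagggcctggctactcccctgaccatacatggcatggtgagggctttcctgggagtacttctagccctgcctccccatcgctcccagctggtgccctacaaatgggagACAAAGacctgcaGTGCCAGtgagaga
The Mobp window held 6 SOX matches and no MYRF match. Mog and Cnp held 1 of each, and Opalin held 2 SOX matches and 1 MYRF match. No SOX match overlapped a MYRF match in these 4 windows. The Cldn11 window held neither. A match of letters is not a site of binding, and its absence says nothing of the factor.

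Levels are given as CPM, read counts per gene scaled to a common library size with TMM factors and not to gene length. Tissue libraries held 9288717 to 12781505 counts on genes and the 14 sdCAM libraries used held 7397393 to 11081409. A pair of sdCAM libraries of the ipsilateral side, from A3 (CTL) and C2 (BLZ945), held 54055 and 55155 counts and RNA marked as degraded, and they were left out, so ipsilateral sdCAMs came from 3 mice per treatment. For mouse A3 the tissue column names and the sample labels give opposite hemispheres, and the labels were followed. The label of the sorted cells was checked against 10 border macrophage markers, among them Mrc1, the gene of CD206: they summed to 1658 to 10469 CPM per sdCAM library, against 21.4 to 44.1 in tissue. The 10 microglial markers, several of which border macrophages also express, summed to 8850 to 36350 CPM in the same sdCAM libraries. In tissue a lower level can come from fewer oligodendrocytes or from less RNA in each, and these cannot be told apart. How these transcripts came into the sorted libraries was not tested.

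In whole tissue the myelin genes were abundant and did not differ between hemispheres beyond the spread between mice. Per kilobase of exon (GENCODE vM21, which may not be the annotation used for counting), the order of levels in contralateral CTL tissue was Mbp at 311, Mobp at 197, Cnp at 145, Cldn11 at 117, Mag at 74.7 and Mog at 54.4 CPM per kb. The transcription factors and Opalin stood lowest, Sox10 at 24.3, Olig2 at 23.1 and Opalin at 11.9 CPM per kb. Olig2 and Sox10 are neighbours whose SDs, 4.81 and 3.35 CPM per kb (n = 4), were larger than the gap between them.

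Mbp in CTL tissue read 3179, 2951, 1995 and 2399 CPM contralaterally in mice A2, A3, A4 and B1, and 2159, 3123, 1947 and 4214 CPM ipsilaterally. In BLZ945 tissue it read 2766, 2072, 1947 and 2477 CPM contralaterally in C2, C3, C4 and D1, and 2487, 1581, 1661 and 2587 CPM ipsilaterally. The hemispheres overlapped in both treatments. A4 was low on both sides, whereas B1 read 2399 CPM contralaterally and its ipsilateral library was the highest of all.

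The other 8 genes followed the same mice, as the map of tissue levels by library shows. In A3, B1 and D1 all 9 genes were higher ipsilaterally, in A2 and C3 all 9 were lower, and A4, C2 and C4 were mixed. The summed level of the 9 genes was 1.39 times higher contralaterally in A2 and 1.32 times in C3, and contralateral stood at 0.613 of ipsilateral in B1. Across the 16 tissue libraries each gene's Pearson correlation with the mean standardised level of the 9 was between 0.840 and 0.974, a description over libraries that share mice and dissections and in which the mean includes the gene itself.

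**Figure D1:**
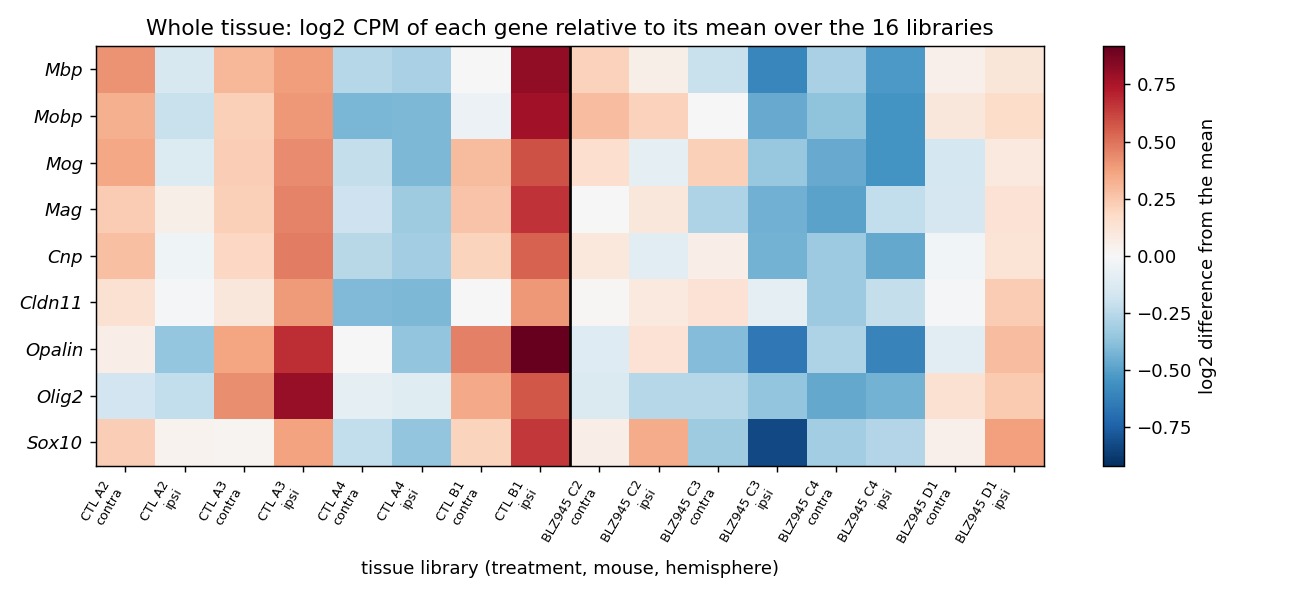
Log2 CPM of each of the 9 genes in every whole-tissue library, as the difference from that gene's mean over the 16 libraries (red higher, blue lower), with CTL mice left and BLZ945 mice right of the line. Whole columns share a colour: B1 ipsilateral is red for all 9 genes, A4 ipsilateral and both libraries of C4 are blue for all 9, and no colour follows the hemisphere.

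None of the 9 genes was called between hemispheres in tissue by edgeR's quasi-likelihood test at an adjusted p under 0.05, and none had an unadjusted p under 0.05. Among all 18968 genes 0.49% were called in CTL mice, 1.36% in BLZ945 mice and 3.05% in the average of both treatments. DESeq2 called 0 of 9 in each as well, and of all genes 0.828%, 2.12% and 3.41% higher and 0.0264%, 0.401% and 1.27% lower. With the hemispheres of A3 as the column names give them, 0, 6 and 1 genes in all were called in place of 93, 258 and 578, and 0 of 9 again. In the average of both treatments the log2 fold changes ran from -0.08 for Mog to 0.13 for Sox10, with a median of 0.08. The 95% intervals of these averages lay within -0.40 and 0.49, so a change of the size seen in sdCAMs would have been outside them.

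Of the 40 other myelin and mature oligodendrocyte genes measured, 1 was called higher and none lower in the average. Klk6, a secreted protease of oligodendrocytes, rose from 7.503 to 15.6 CPM in CTL and from 5.76 to 13.3 CPM in BLZ945 tissue, a log2 fold change of 1.12 ± 0.26 (SE, adjusted p = 0.0205, edgeR). Of 12 other transcription factors of the lineage and 20 precursor genes, 0 were called in tissue by edgeR's test, with medians of -0.06 and -0.06 on the log2 scale. With the mouse as a replicate block, where 4.06% of all genes were higher and 3.02% lower in the average, 5 other myelin genes were called higher (Klk6, Trf, Apod, Gjb1 and Tmem88b), 1 transcription factor lower (Sox8) and 2 precursor genes lower (Cspg5 and Gpr17). The block as a random effect called 2, 1 and 2 genes of these lists, and DESeq2 called 2, 0 and 1. Of all genes the random effect called 3.85% higher and 2.07% lower, and DESeq2 3.41% and 1.27%. Gpr17, a receptor of committed precursors, had an average of -0.35 ± 0.10 (SE) with an adjusted p of 0.0673 without the block and 0.012 with it. With the hemispheres of A3 as in the column names and the block, Sox8 alone of these lists was called in the average.

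BLZ945 and CTL tissue were compared next, on each side. Ipsilaterally all 9 genes had lower estimates in BLZ945 tissue, from -0.12 for Cldn11 to -0.50 for Olig2 on the log2 scale with a median of -0.38, and contralaterally all 9 again, with a median of -0.19. None passed edgeR's test on either side, where 0% of all genes were called (858 genes had an unadjusted p under 0.05 ipsilaterally and 616 contralaterally). DESeq2 called 0 of 9, and of all genes 0.00527% lower ipsilaterally and 0% contralaterally. Unadjusted p was under 0.05 for 2 of 9 ipsilaterally, Cnp at 0.039 and Olig2 at 0.0357, and for 0 of 9 contralaterally, and their adjusted p was 0.958 in edgeR's test. The comparisons share the same mice, so the 2 sides are not separate evidence.

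Olig2 stood at 44.9, 91.7, 48.7 and 78.3 CPM in ipsilateral CTL tissue of A2, A3, A4 and B1, and at 43.9, 41.0, 39.0 and 62.2 CPM in C2, C3, C4 and D1. Most of the gap rested on A3 and B1, and the groups overlapped. Opalin was the only 1 of the 9 whose groups did not overlap on a side: contralaterally it read 31.1, 38.3, 29.7 and 41.1 CPM in CTL and 27.4, 22.6, 24.5 and 27.7 CPM in BLZ945 tissue. Its log2 fold change there was -0.46 ± 0.27 (SE), and 1.17% of all genes were lower without overlap in the same comparison (1.1% ipsilaterally).

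Markers of brain region moved in this comparison too. All 9 thalamus markers had lower estimates in ipsilateral BLZ945 tissue, with a median of -0.95, and none of 10 striatum markers did, with a median of 0.36, and 0 of either list were called. The summed thalamus markers ranged from 247 to 1838 CPM in ipsilateral CTL and from 179 to 894 CPM in ipsilateral BLZ945 tissue. B1, highest for the myelin genes on the ipsilateral side, was also highest for the thalamus markers, and A4 was lowest of the CTL mice for both lists there. How far the sampled region contributes to the myelin values was not tested. Of the other myelin genes 37 of 40 and of the precursor genes 20 of 20 had lower estimates in ipsilateral BLZ945 tissue, and none was called by edgeR's test.

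In sdCAMs the picture differed. Each of the 9 genes fell on the ipsilateral side in the average of both treatments, by 1.21 on the log2 scale for Cnp to 7.65 for Olig2 with a median of 3.44, at adjusted p between 0.00206 (Mobp) and 0.0146 (Cnp) in edgeR's test. With the mouse as a replicate block 6 of 9 were called, where 7.06% of all genes were called lower. Mag, Cnp and Cldn11 then had adjusted p of 0.0847, 0.0751 and 0.0635. With the block as a random effect 8 were called, without Mag at 0.0835, where 14.3% of all genes were called lower. The estimates of Olig2 and Sox10 rest on ipsilateral counts at or near 0 and are no bounds. Of all 18297 genes 11.2% were called lower and 16.2% in either direction, and the median over all genes was -0.16. In CTL mice alone 3 of 9 were called lower (2.36% of all genes) and in BLZ945 mice alone 3 of 9 (4.41%). The summed level of the 9 was 971 to 2408 CPM in contralateral and 275 to 684 CPM in ipsilateral CTL sdCAMs, and 453 to 1534 against 214 to 263 CPM in BLZ945 sdCAMs, without overlap in either treatment.

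**Figure D2:**
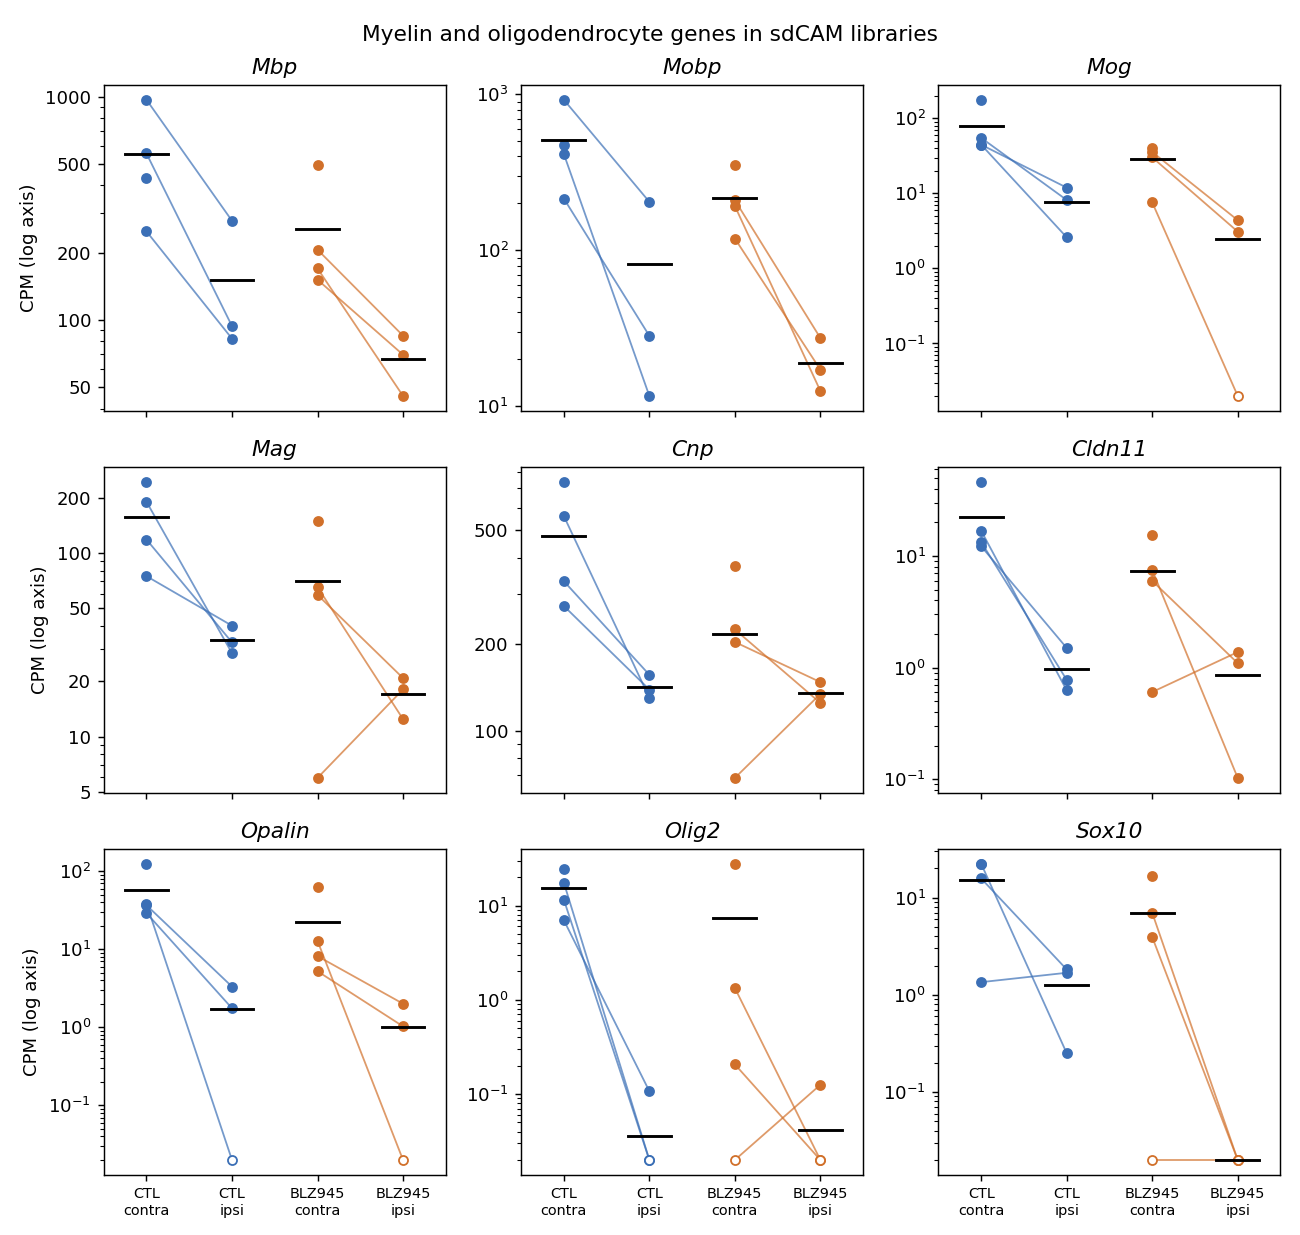
CPM of each gene in every sdCAM library used, on log axes that differ between panels, with lines joining the hemispheres of a mouse and black bars at group means (n = 4 contralateral, n = 3 ipsilateral per treatment). Open points drawn at the foot of a panel are libraries with 0 counts, and a bar there is a mean of 0. The points fall from contralateral to ipsilateral for most mice, except that C4 rises for Mag, Cnp, Cldn11 and, by 1 count, Olig2, and A4 rises for Sox10.

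The proteins of compact myelin come first. Mbp read 556, 430, 967 and 248.8 CPM in contralateral CTL sdCAMs of A2, A3, A4 and B1 and 93.7, 278 and 82.3 CPM in ipsilateral sdCAMs of A2, A4 and B1. In BLZ945 sdCAMs it read 496, 206, 170 and 151 CPM contralaterally in C2, C3, C4 and D1 and 84.8, 45.6 and 69.7 CPM ipsilaterally in C3, C4 and D1. It was lower ipsilaterally in 6 of 6 mice with both sides, and the groups overlapped in CTL only because ipsilateral A4 stayed above contralateral B1. The average fell by 1.90 ± 0.38 (SE) on the log2 scale, 3.74-fold (adjusted p = 0.00407).

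Mobp stood at 415, 472, 925 and 215 CPM in contralateral CTL sdCAMs and at 11.7, 205 and 28.3 CPM ipsilaterally. In BLZ945 mice it stood at 351, 210, 193 and 119 CPM against 27.4, 12.6 and 17.2 CPM. A4 was again highest on both sides, and no ipsilateral library reached its own contralateral group in either treatment. Mobp fell by 3.08 ± 0.56 (SE) on average, 8.43-fold (adjusted p = 0.00206), and by 3.52 ± 0.82 in BLZ945 mice alone (adjusted p = 0.0215).

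Cldn11, the tight junction protein, gave 16.8, 46.2, 13.3 and 12.2 CPM in contralateral CTL sdCAMs and 0.627, 0.778 and 1.502 CPM ipsilaterally. In BLZ945 mice it gave 15.6, 5.99, 0.605 and 7.49 CPM against 1.10, 1.38 and 0.103 CPM. The CTL groups were far apart, whereas contralateral C4 lay below ipsilateral C3 and C4. Cldn11 fell by 4.49 ± 1.10 (SE) in CTL mice (adjusted p = 0.0424), where 927 contralateral and 25 ipsilateral counts gave a ratio of 22.1 (14.9 to 34.3, 95% interval of the pooled counts, counting error only). A3 held 478 of these contralateral counts, and without that mouse the ratio was 14.2, whereas it was 35.4 without B1.

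Mog and Mag lie on the outer and inner surfaces of the sheath. Mog read 54.8, 177, 44.5 and 44.5 CPM in contralateral CTL sdCAMs and 8.15, 2.59 and 11.9 CPM ipsilaterally, and in BLZ945 mice 39.8, 35.6, 7.57 and 30.2 CPM against 4.39, 0 and 3.09 CPM. Its groups did not overlap in either treatment, A3 stood alone at the top, and Mog was lower in 6 of 6 mice, by 3.44 ± 0.66 (SE) on average, 10.9-fold (adjusted p = 0.0028). Mag read 190, 245, 74.9 and 119 CPM contralaterally and 28.5, 40.2 and 32.6 CPM ipsilaterally in CTL, and 150, 59.2, 5.95 and 65.3 CPM against 20.8, 18.1 and 12.5 CPM in BLZ945 mice. Mag was lower in 5 of 6 mice and higher in C4, and its average fell by 2.12 ± 0.49 (SE), 4.36-fold (adjusted p = 0.0084, and 0.0847 with the mouse as a replicate block).

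Cnp, the enzyme of the cytoplasmic channels, changed least. It stood at 561, 739, 332 and 272 CPM in contralateral CTL sdCAMs and at 130, 157 and 139 CPM ipsilaterally. In BLZ945 mice the values were 375, 225, 68.4 and 204 CPM contralaterally and 125, 134 and 148 CPM ipsilaterally. The 6 ipsilateral libraries were alike within 125 to 157 CPM whatever the contralateral level had been. Cnp fell by 1.74 ± 0.44 (SE) in CTL mice (adjusted p = 0.0469) and its estimate in BLZ945 mice was -0.68 ± 0.42 (adjusted p = 0.349, 95% interval -1.63 to 0.26).

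Opalin and the transcription factors had, with Cldn11, the lowest mean ipsilateral CPM of the 9. Opalin read 29.1, 125, 38.2 and 36.7 CPM in contralateral CTL sdCAMs and 1.76, 0 and 3.33 CPM ipsilaterally, and in BLZ945 mice 63.3, 12.8, 8.17 and 5.23 CPM against 0, 2.01 and 1.03 CPM. Its groups did not overlap in either treatment, and it fell in 6 of 6 mice, by 4.75 ± 0.89 (SE) on average, 26.9-fold (adjusted p = 0.0025). Olig2 had 186, 255, 137 and 64 counts in contralateral CTL sdCAMs and 0, 0 and 1 ipsilaterally, a ratio of 382 for the pooled counts with a 95% interval of 68.4 to 15130 that covers counting error only. Without A2 the ratio was 248, and without B1, which held the 1 ipsilateral count, the level was at least 46.04-fold lower against the floor of 3 counts per library. In BLZ945 mice Olig2 had 219, 2, 0 and 13 counts contralaterally, so C2 alone held nearly all of them, and 0, 1 and 0 ipsilaterally.

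Sox10 had 237, 227, 16 and 144 counts in contralateral CTL sdCAMs and 2, 13 and 17 ipsilaterally. In A4 it did not fall: 1.35 CPM contralaterally and 1.69 CPM ipsilaterally, although Mbp and Mobp were highest in that mouse. In BLZ945 mice it had 133, 38, 0 and 68 counts contralaterally and 0 in all 3 ipsilateral libraries, which is at least 18.5-fold lower against a floor of 3 counts per library. C2, which has no ipsilateral library here, held 133 of these 239 counts, and without it the bound was 10.4-fold. The log2 estimate of -9.01 for that comparison (adjusted p = 0.0341) depends on how zeros are handled and is no bound.

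**Figure D3:**
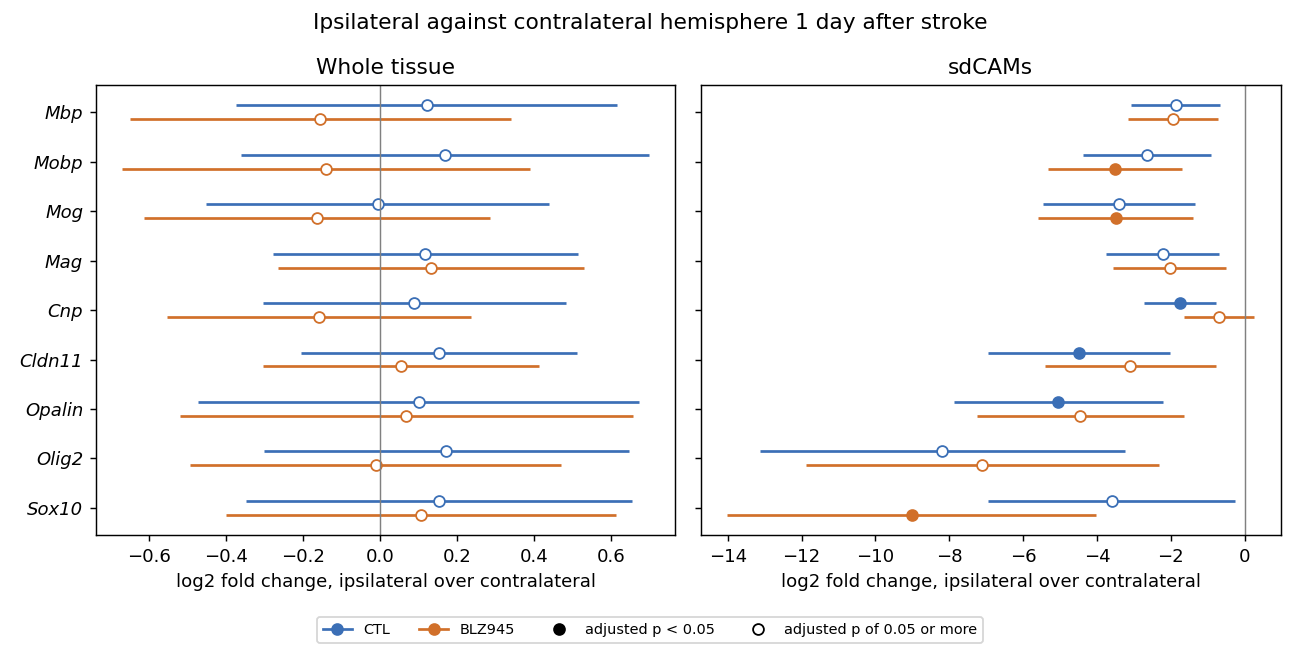
Log2 fold change between hemispheres of each gene with its 95% interval, in whole tissue (left) and sdCAMs (right), for CTL mice in blue and BLZ945 mice in orange, with filled points at an adjusted p under 0.05 (edgeR). Tissue points stay within -0.16 and 0.17, whereas every sdCAM point lies below 0, from -0.68 for Cnp to -9.01 for Sox10 in BLZ945 mice.

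Within a treatment, 7 of 9 genes in CTL and 4 of 9 in BLZ945 sdCAMs were lower ipsilaterally with no overlap, against 10.2% and 12.4% of all genes. By mouse, all 9 were lower ipsilaterally in A2, B1, C3 and D1 and 8 of 9 in A4, whereas C4 had 4 lower, 4 higher (Cldn11, Cnp, Mag and, by 1 count, Olig2) and Sox10 at 0 on both sides. The summed level was 6.78, 3.52 and 3.22 times higher contralaterally in A2, A4 and B1 and 2.88, 2.12 and 2.35 times in C3, C4 and D1. The number called within 1 treatment depended on single mice and on the tool. In CTL it was 0 of 9 without A2, A3 or B1 and 1 without A4 or C3 (0.734% to 1.78% of all genes called lower). In BLZ945 mice it was 0 of 9 without C3 or D1 and 1 without C2 (1.85% to 3.2% of all genes). DESeq2 called 9 in CTL and 8 in BLZ945 mice, where 8.21% and 11% of all genes were called lower. In the average of both treatments 8 or 9 were called without any 1 mouse (7.38% to 9.97% of all genes).

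The hemisphere difference of BLZ945 mice was then tested against that of CTL mice. It differed for 0 of 9 genes in sdCAMs and 0 of 9 in tissue at an adjusted p under 0.05 in edgeR's test, which called 0% of all genes in either. Unadjusted p was under 0.05 for Sox10 in sdCAMs (0.0466) and for no other of the 9 in either material. In all 912 genes had one in sdCAMs and 386 in tissue. DESeq2 called 0 of 9, and of all genes 0.0656% higher and 0.197% lower in sdCAMs and 0% in tissue. The intervals were wide in sdCAMs, from -0.26 to 2.38 on the log2 scale for Cnp and from -1.84 to 2.22 for Mag, so differences of several-fold were not detectable with 3 ipsilateral mice a group.

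BLZ945 and CTL sdCAMs were not told apart for these transcripts by the test on either side. On the contralateral side all 9 estimates were negative, from -1.06 for Olig2 to -1.58 for Cldn11 with a median of -1.17 on the log2 scale, while the median over all genes was 0. None was called by edgeR (adjusted p 0.759 to 0.991, 0% of all genes called), with unadjusted p of 0.0112 for Cnp and 0.035 for Mbp. DESeq2 called 0 of 9 on that side, and of all genes 0.191% higher and 0.0492% lower. Mog was the gene whose groups did not overlap there, 1.79% of all genes being lower without overlap. Markers of other cells moved in this comparison too: 10 of 10 microglial markers had negative estimates (median -0.70, 7 of them without overlap), as did 8 of 10 border macrophage markers (median -0.58), whereas all 7 choroid plexus markers had positive ones (median 2.51), and none was called. Their part in the estimates of the 9 genes was not tested. Ipsilaterally 8 of 9 estimates were negative with a median of -0.98, none was called, and Mag and Sox10 did not overlap (3.55% of all genes).

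The other genes of the pathway differed by list in the comparison of hemispheres within sdCAMs, averaged over treatments, where 11.2% of all genes were lower. Of 40 other myelin and mature oligodendrocyte genes, 30 fell and 1 rose, with a median of -4.04 (24 fell with the mouse as a replicate block). Car2, a carbonic anhydrase of oligodendrocytes, fell from 336 to 35.6 CPM in CTL and from 306 to 14.02 CPM in BLZ945 sdCAMs (-3.84 ± 0.31 SE, adjusted p = 1.22e-05). Mal, a proteolipid of compact myelin, fell from 304 to 18.96 and from 250 to 6.41 CPM (adjusted p = 1.69e-05), and Septin4 fell by 3.36 ± 0.35 (adjusted p = 3.89e-05). Tmem63a rose by 0.59 ± 0.18 (adjusted p = 0.0346). Enpp2 alone made up much of the summed level of this list in BLZ945 contralateral sdCAMs, with a mean of 8629 CPM, and the choroid plexus also expresses it.

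Of 12 other transcription factors of the lineage 6 fell and none rose (4 and 1 with the replicate block). Nkx6-2 fell by 5.75 ± 0.89 (SE, adjusted p = 0.000651), Myrf, the partner of SOX10, from 17.004 to 1.16 CPM in CTL and from 6.49 to 0 CPM in BLZ945 sdCAMs (adjusted p = 0.00876), and Olig1 fell by 2.65 ± 0.69 (adjusted p = 0.0168). The summed level of this list was lower ipsilaterally in 1 of 6 mice, and Zeb2, Tcf7l2 and Sall3, among its most abundant members, had log2 estimates of 0.55, 0.45 and 0.34 and were not called (adjusted p = 0.159, 0.261 and 0.572). Of 19 precursor genes tested 6 fell and none rose (4 with the replicate block), with a median of -1.68: Cspg5 fell by 2.09 ± 0.49 (adjusted p = 0.00972), Sox6 fell by 3.99 ± 0.97 (adjusted p = 0.0119) and Matn4, near 1 CPM contralaterally, fell by 6.48 ± 1.67 (adjusted p = 0.0233). The precursor markers Pdgfra and Gpr17, at 4.50 and 0.799 CPM in contralateral CTL sdCAMs, were not called. Of 26 genes of myelin lipid and cholesterol synthesis 4 fell, a share near that of all genes, with a median for the list of -0.16, the same as for all genes. Fa2h, Gal3st1 and Ugt8a make the sphingolipids of myelin and Elovl7 elongates fatty acids, and Fa2h and Ugt8a also stand on the list of other myelin genes. Elovl1, which elongates very long fatty acids, rose by 0.62 ± 0.16 (adjusted p = 0.0164). The cholesterol enzymes, which every cell uses, were not called.

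Markers of some other cell types fell with the 9 genes in sdCAM libraries, whereas those of others rose. Endothelial markers fell for 9 of 9, with a median of -4.26, and summed to 1505 to 4741 CPM in contralateral CTL against 239 to 367 CPM in ipsilateral CTL sdCAMs, and to 2401 to 4447 against 177 to 200 CPM in BLZ945 mice. Astrocyte markers fell for 7 of 10, and in CTL sdCAMs summed to 1132 to 2713 CPM contralaterally and 562 to 1221 CPM ipsilaterally, and in BLZ945 sdCAMs to 608 to 1944 and 398 to 754 CPM. Neuronal markers fell for 5 of 15, from 65.1 to 210 CPM in contralateral CTL to 36.1 to 53.2 CPM in ipsilateral CTL libraries, and from 51.0 to 128 CPM to 8.16 to 20.5 CPM in BLZ945 libraries, where 2 of them were at 0 in all 3 ipsilateral libraries. Choroid plexus markers fell for 5 of 7, with 30.7 to 9149 CPM contralaterally and 0.502 to 383 CPM ipsilaterally in CTL, where 1 marker was at 0 in all 3 ipsilateral libraries, and 1433 to 37991 against 199 to 1522 CPM in BLZ945 sdCAMs. Border macrophage markers rose for 8 of 10, with a median of 0.99, and summed to 1995 to 6603 CPM contralaterally and 4929 to 8720 CPM ipsilaterally in CTL sdCAMs. Microglial markers rose for 4 of 10, with a median of 0.57. Their part in the myelin result was not tested.

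**Figure D4:**
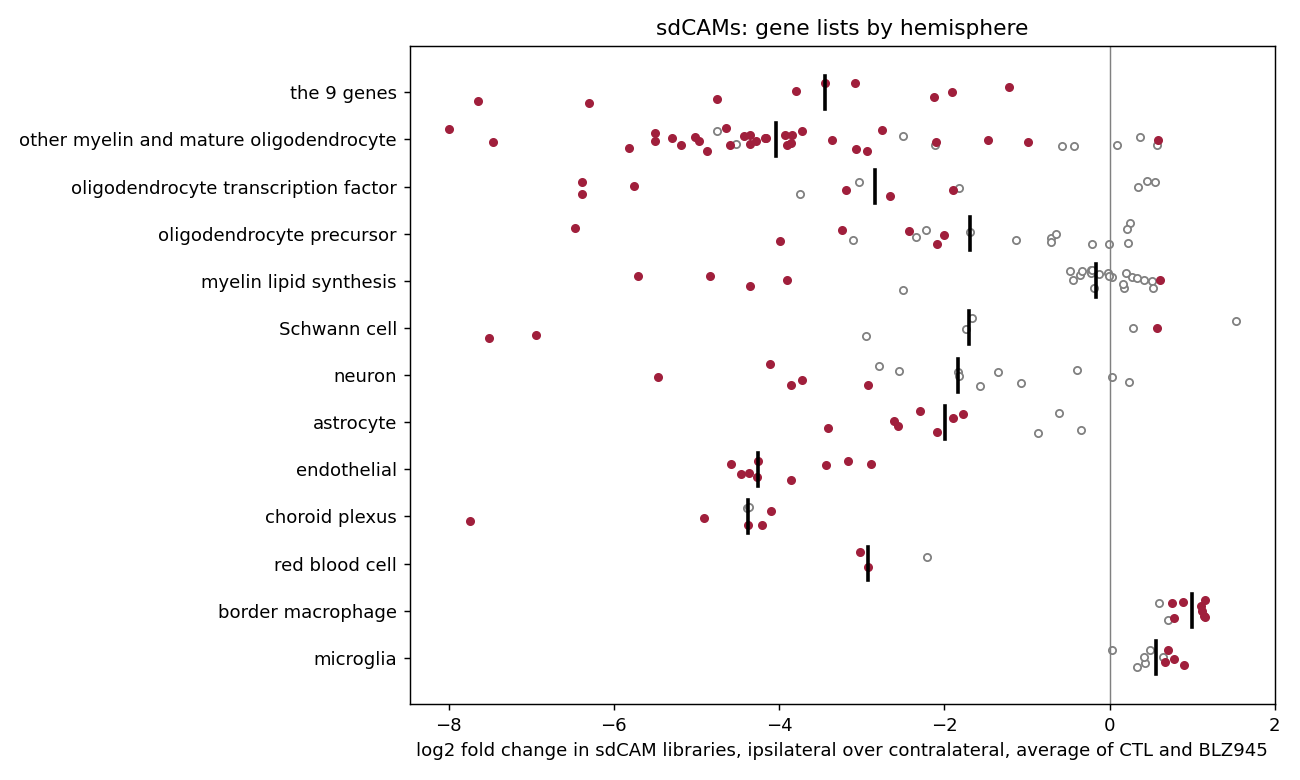
Log2 fold change in sdCAMs, ipsilateral over contralateral and averaged over CTL and BLZ945, for every gene tested in each marker list (points, filled at an adjusted p under 0.05 in edgeR), with the median of each list as a black bar. The 9 genes have a median of -3.44, other myelin genes of -4.04 and endothelial genes of -4.26, whereas border macrophage markers have a median of 0.99.

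Contralateral C4, in which Mag, Cnp and Cldn11 were lowest of the BLZ945 mice, had the highest summed choroid plexus markers of all sdCAM libraries, 37991 CPM, and the lowest border macrophage markers, 1658 CPM. Contralateral C3 and A4 followed with 20438 and 9149 CPM of choroid plexus markers. Leaving out these 3 libraries, a setting chosen after seeing the data, kept contralateral A2, A3 and B1 in CTL and only C2 and D1 in BLZ945 mice. C2 was the highest of the BLZ945 mice for Mbp, Opalin and Olig2 and has no ipsilateral library here. C4, in which Mag, Cnp and Cldn11 rose ipsilaterally, was among those removed. In this setting all 9 genes were called lower in the average, and 3 of 9 in each treatment. Of all genes 5.06% were called lower there in the average, 0.594% in CTL and 0.707% in BLZ945 mice. Scaled to the border macrophage markers in place of TMM, also chosen after seeing the data, 9 of 9 were called lower in the average, 8 in CTL and 9 in BLZ945 mice, but so were 41.5%, 4.01% and 20.2% of all genes, with the median of all genes at -1.35 in the average, and nothing is read from these counts.

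The levels in sdCAMs were also set beside those in tissue of the same mouse and hemisphere, without a test because the libraries differ in material. In contralateral CTL mice the median over 4 mice was 16.02% of the tissue CPM for Mbp, 28.2% for Mobp, 57.7% for Mog, 47.3% for Mag, 88.1% for Cnp, 7.43% for Cldn11, 111% for Opalin, 29.1% for Olig2 and 23.2% for Sox10. The percentages differed between the genes. Opalin reached 89.4% to 325% and Cldn11 5.53% to 19.4%. Over each list in the same libraries, neuronal markers had a median of 0.421% of their tissue level and astrocyte markers 39.3%. Other myelin genes had a median of 71.7% and endothelial markers 527%, against 29.1% for the 9 genes.

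Per kilobase of exon the order in contralateral CTL sdCAMs was Cnp at 131, Mobp at 74.0, Mbp at 65.0, Mog at 47.0, Mag at 38.6, Opalin at 19.4, Cldn11 at 11.9, Olig2 at 6.0002 and Sox10 at 5.03 CPM per kb. Cnp, below Mbp and Mobp in tissue, came first, and Opalin, last in tissue, stood above Cldn11 and both factors. Mobp and Mbp are neighbours in that order with SDs of 43.7 and 36.04 CPM per kb (n = 4), larger than the gap between them. The first place of Cnp depends on the exon lengths. In CPM the same libraries had means of 550 for Mbp, 507 for Mobp and 476 for Cnp, with SDs of 305, 300 and 215. Ipsilaterally the percentages of tissue fell to 27.5% for Cnp, 9.95% for Mag, 9.73% for Mog, 5.91% for Opalin, 4.34% for Mbp, 1.27% for Mobp and 0.466% for Cldn11 in CTL mice (medians over 3 mice), and Olig2 was at 0. Sox10 stood at 0.251, 1.69 and 1.82 CPM in ipsilateral sdCAMs of A2, A4 and B1, against 72.4, 55.0 and 111 CPM in tissue.

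**Figure D5:**
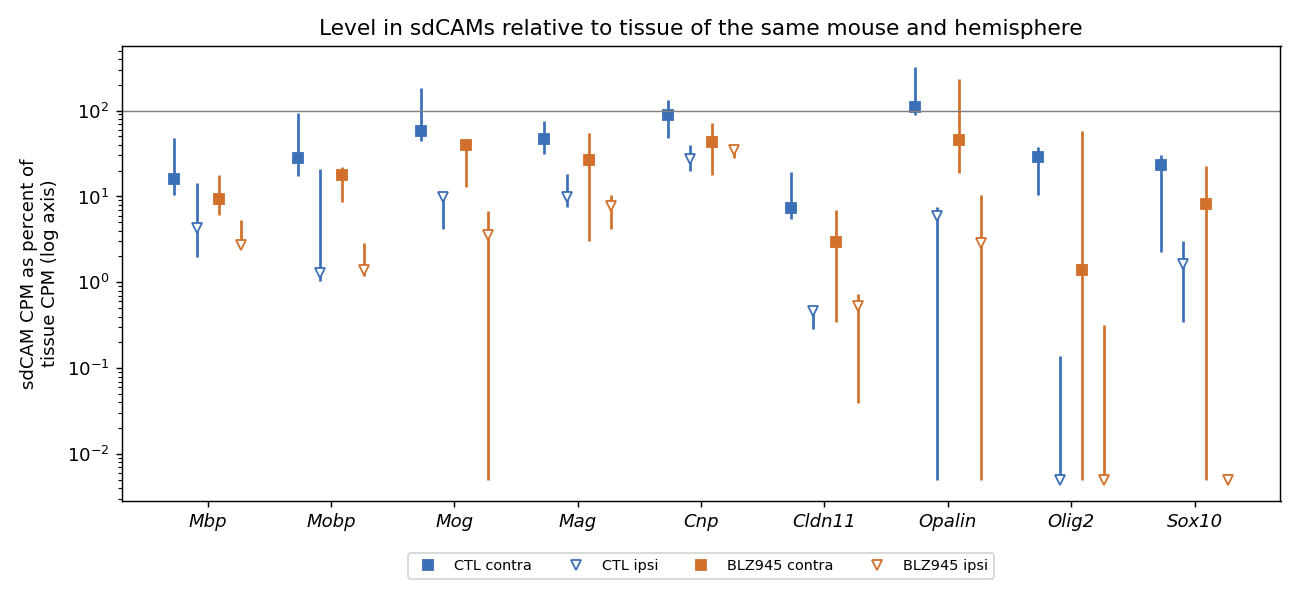
CPM in sdCAMs as a percentage of the CPM in tissue of the same mouse and hemisphere, on a log axis, as the median (symbols) and range (lines) over 4 mice contralaterally and 3 ipsilaterally per treatment, with values of 0 drawn at the lower edge. Contralateral CTL medians run from 7.43% for Cldn11 to 111% for Opalin, and the ipsilateral medians of all 9 genes lie below the contralateral ones of the same treatment.

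Outside the 9, the genes whose tissue levels were most like their mean over the 16 libraries, among 14308 genes with at least 1 CPM, included Slc44a1 (Pearson r = 0.961), Cryab (0.954), Plekhb1 (0.948), S100b (0.944), Pllp (0.943), Desi1 (0.942), Tmem63a (0.942), Gna12 (0.941) and Mal (0.941). Of these 9, 4 were on the list of other myelin genes.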

How the data were processed

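Whole tissue and sorted sdCAMs from both hemispheres of 8 mice gave 32 libraries, single reads of which the authors processed with bcl2fastq 2.20, STAR 2.7.11a and featureCounts 2.0.8 according to the submitters' notes. The deposited values are raw read counts per gene in 1 table for tissue and 1 for sdCAMs, and the genome build used for them is not given in the sources used here. All libraries carry the same batch label, so every comparison is within that batch.

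Genes with a summed count under 8 in tissue or 7 in sdCAMs were removed. One edgeR 4.0.16 quasi-likelihood model per table (R 4.3.3, TMM, 4 groups of treatment and hemisphere, two-sided, Benjamini-Hochberg over all genes) gave every comparison, called at an adjusted p-value under 0.05. The model was tested on simulated data. Its counts were drawn with the spread that edgeR estimated, so it is not neutral between the tools. In that test false calls were more frequent with DESeq2 than with edgeR. In simulated sdCAMs DESeq2 also recovered more of the planted changes, and edgeR missed most of them. Replicates are separate mice. The members and all gene lists were chosen with earlier results of these data known, and the genes named follow a rule: all 9 in every comparison, up to 3 called genes with the smallest adjusted p of each other list, and the 10 genes most correlated with the 9 in tissue, of which 1 is not reported here. Genes named beyond it, such as Enpp2, Tmem63a, Pdgfra and Gpr17, were chosen after their values were seen. Hemispheres are paired by the mouse in the sample titles. Deviations from group means correlated between hemispheres of a mouse with a median r of 0.262 in tissue (8 mice) and 0.0957 in sdCAMs (6 mice), against -0.0742 and -0.0335 between different mice.

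Alternatives were DESeq2 1.42.0 with its Wald test, its size factors, no filter, filterByExpr, a log2 fold change beyond 0.59, the mouse as a fixed or random (limma 3.58.1) replicate block, leaving out each mouse, the hemispheres of A3 as in the column names, all 16 sdCAM libraries, and the settings chosen after seeing the data, among them pooled counts without each mouse. A library's 3 counts equal 0.235 to 0.323 CPM in tissue and 0.271 to 0.406 in the sdCAM libraries used. Marker lists for striatum, cortex and hippocampus, thalamus, Schwann cells and red blood cells were also counted: in sdCAMs on average 1 of 7, 0 of 11, 2 of 9, 2 of 8 and 2 of 3 fell, and Prkcd of the thalamus list and Pmp22 of the Schwann cell list rose.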

Additional observations from a re-analysis of the deposited data

Results flagged for a closer look

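Single libraries stood apart from the other 3 of their group by Dixon's test in 7 of 54 groups of 4 values of one gene. The 9 genes move together and were read in the same libraries, so these 54 groups are not independent. The number flagged therefore cannot be set against a rate expected by chance. In contralateral CTL sdCAMs, A3 was far above the others for Mog (177 against 54.8 CPM in the next library), Cldn11 (46.2 against 16.8) and Opalin (125 against 38.2). In contralateral BLZ945 sdCAMs, C2 was far above for Mbp (496 against 206 CPM), Opalin (63.3 against 12.8) and Olig2 (27.7 against 1.33). In contralateral CTL tissue, A4 was far below for Mag (242 against 320 CPM). The ipsilateral sdCAM library is missing from the comparison for exactly A3 and C2, so the highest contralateral sdCAM libraries for these genes have no partner. Without A3 the average fall in sdCAMs was called for 9 of 9 genes, and without C2 for 9 of 9.

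The degraded ipsilateral sdCAM library of C2, used in no comparison, held 5 counts of Mbp and 4 of Mag, above the 3 counts that a count of 0 allows, equal to 90.7 and 72.5 CPM of its 55155 counts. The degraded library of A3 held 3 counts of the 9 genes in all.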

How the results depend on the processing

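Counts of genes called are out of the 9. All 9 genes stayed lower ipsilaterally in sdCAMs under every alternative run, within each treatment and on average. The average was called for 9 of 9 except with the fixed replicate block for the mouse (6), the random replicate block (8, Mag at an adjusted p of 0.0835), all 16 libraries (8) and without C3 (8, Cnp at 0.0541), and leaving out 1 mouse gave 8 to 9. Of all genes 7.06%, 14.3%, 5.99% and 7.74% were called lower in the average under these settings, in that order, against 11.2% in the main model. In CTL mice, 3 of 9 called became 9 with DESeq2, 7 with no filter, 8 scaled to border macrophage markers and 1 with all 16 libraries, and 0 to 6 on leaving out 1 mouse. The share of all genes called lower moved too, from 2.36% to 8.21%, 2.56%, 4.01% and 1.1% in that order. It was 0.734% to 2.73% on leaving out 1 mouse. In BLZ945 mice, 3 of 9 became 8 with DESeq2, 5 with DESeq2's size factors, 6 with no filter, 5 with filterByExpr, 1 with the random replicate block and 9 scaled to border macrophage markers, and 0 to 5 on leaving out 1 mouse. There the share of all genes called lower moved from 4.41% to 11%, 4.63%, 4.22%, 6.07%, 7.64% and 20.2% in that order. It was 1.43% to 5.44% on leaving out 1 mouse. The cause of these shifts was not tested. The fixed replicate block gave 2 in CTL and 3 in BLZ945 mice, where 1.48% and 3.73% of all genes were called lower. In tissue 0 of 9 were called in every comparison under every alternative, the hemispheres of A3 as in the column names and the replicate block included. Of 1836 values of single genes under an alternative, 108 changed sign, 76 in tissue and 32 in sdCAMs, all in comparisons where the gene was not called. Treatments were given to different mice, so the fixed block could be run only between hemispheres. The order of the 10 genes most like the 9 did not change with a prior count of 0.5.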

Other observations

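Gpr17, a receptor of committed oligodendrocyte precursors that is switched off as the cells mature, was singled out among the 20 precursor genes in tissue after its values were seen. Ipsilaterally it read 52.5, 56.9, 52.1 and 61.9 CPM in CTL mice A2, A3, A4 and B1 and 31.5, 24.5, 25.6 and 39.6 CPM in BLZ945 mice C2, C3, C4 and D1. Contralaterally it read 72.6, 55.7, 52.4 and 69.8 CPM in CTL and 47.1, 48.6, 40.8 and 39.8 CPM in BLZ945 mice. The treatments did not overlap on either side, as for 2 of the 20 precursor genes ipsilaterally and 4 contralaterally, all lower in BLZ945 tissue. Of all genes 1.1% ipsilaterally and 1.17% contralaterally were lower without overlap. The log2 fold change, BLZ945 over CTL, was -0.88 ± 0.14 (SE) ipsilaterally, which edgeR's test did not call (adjusted p = 0.175) and DESeq2's Wald test did (adjusted p = 0.000106). Over the alternatives in edgeR and limma the adjusted p ran from 0.0218 without D1 to 1. Contralaterally it was -0.51 ± 0.14 (adjusted p = 1). Between hemispheres of BLZ945 mice it was -0.54 ± 0.14, at an adjusted p of 0.0808 in edgeR's test, 0.012 with the mouse as a replicate block and 0.02 in DESeq2's. Myrf, the mature-cell factor, read 128, 174, 108 and 182 CPM in the same ipsilateral CTL and 158, 100, 107 and 152 CPM in BLZ945 tissue, which overlap.

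In sdCAMs Gpr17 had 0.0941, 0, 0.591 and 2.51 CPM in contralateral CTL libraries, whereas Myrf had 24.3, 19.1, 3.71 and 20.98 CPM there.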
